A study of Mus musculus with 2 samples.

Results

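The Six-, Eya- and Dach-family genes examined here are 9 genes of 55536 in the GENCODE M21 gene tables, matched by symbol: Six2, Six4, Six5, Eya1, Eya2, Eya3, Eya4, Dach1 and Dach2. Six-family proteins are homeodomain factors that bind DNA, Eya proteins are coactivators and phosphatases that have no DNA binding of their own and are brought to genes by Six-family proteins, and Dach proteins are corepressors related to Ski that act on the same complexes. The network is known from Drosophila eye development and, in vertebrates, from muscle progenitors, kidney, sensory placodes and limb connective tissue.

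Limbs of E12.5 mouse embryos of the B6NCrl strain gave the polyadenylated RNA, in 1 group with 2 biological replicates. Both replicates pooled the sexes, 88 embryos going into replicate 1 and 68 into replicate 2, so a value is an average over many embryos. Whether the pools held forelimbs, hindlimbs or both was not stated in the labels. Oligo-dT priming turned 10 ng of RNA into cDNA for each library. There was no second condition, so the data answer at what level each gene and transcript was present and how far the libraries differ, and p-values compare 2 libraries and not conditions.

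The deposited expected counts summed to 29633457 in replicate 1 and 30118921 in replicate 2 over genes. At that depth a transcript of 2000 nt at 1 TPM, a level scaled to length and depth, holds 37.5 and 37.9 reads. The 5 limb markers all reached 1 TPM in both libraries, led by Msx1, a homeobox gene of limb mesenchyme, at 375 ± 19.6 TPM (SD, n = 2). Tbx5, a forelimb factor, was the lowest at 34.2 ± 8.19 TPM. So did the 5 muscle fibre genes, with Actc1, the cardiac alpha-actin of embryonic muscle, at 326 ± 10.1 TPM and Myh3, the embryonic myosin heavy chain, at 40.05 ± 3.75 TPM. In bulk RNA of this kind, fewer cells that express a gene and less RNA per cell cannot be told apart.

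All 9 genes reached 1 TPM in both libraries, against 58.1% of the 22028 protein-coding genes. They were of low to middle abundance. Their median was 9.35 TPM, and the median of the 12802 protein-coding genes that reached 1 TPM was 22.4 TPM. Eya3, the highest, exceeded 57.5% of those genes, and Dach2, the lowest, exceeded 22.0% of them.

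**Figure D1:**
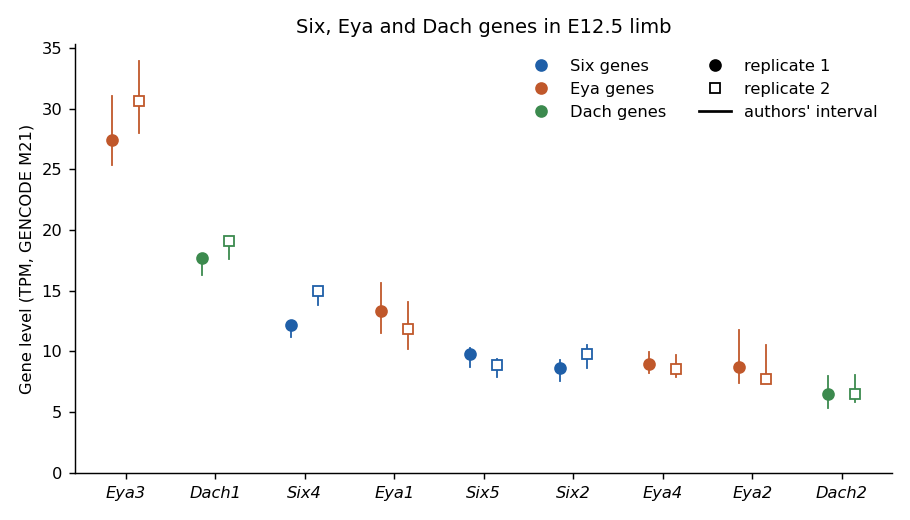
Gene level in TPM (vertical axis) for the 9 genes, ordered by mean, with replicate 1 as filled circles, replicate 2 as open squares and the authors' interval as a line. Eya3 lies between 27.4 and 30.6 TPM and Dach2 at 6.46 and 6.52 TPM, while the genes from Six5 to Eya2 overlap.

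Among the Six-family members, Six4 had the highest level. Six4 acts at MEF3 elements of muscle genes, and its locus is chr12:73099609-73113456 on the minus strand (mm10, as are all gene coordinates here). Six4 was at 12.2 TPM (1526 reads) in replicate 1 and 15.0 TPM (1890 reads) in replicate 2. Six5, which lies beside the myotonic dystrophy kinase gene Dmpk at chr7:19094594-19098549 (plus strand), was at 9.79 and 8.90 TPM, from 562 and 516 reads. Six2, which keeps kidney progenitors undifferentiated and lies at chr17:85684277-85688274 (minus strand), was at 8.63 and 9.78 TPM, from 344 and 394 reads.

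A difference between 2 genes was called past the spread when it had the same sign in both libraries and, in the library where it was smaller, was larger than the 95th percentile of the differences between libraries of the 500 genes whose level was most like that of the lower gene. By that measure Six4 exceeded Six2 (1.47-fold, against a spread of 1.39-fold), a call that was lost with the M4 tables and with a spread taken over more genes of like level. Six4 over Six5 was 1.45-fold on average but fell inside the spread of 1.41-fold in replicate 1. Six5 and Six2 changed order between the libraries.

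The Six-family genes were also the simplest in transcript structure. Six5 has 1 annotated transcript. All Six2 reads were assigned to Six2-202, which has 2 exons, and none to Six2-201. Six4-201 held 91.8 ± 1.58% of Six4 TPM (SD, n = 2), and Six4-202, which has another 3′ end, held 7.13% in replicate 1 and 9.36% in replicate 2.

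Because Six-family proteins bind the MEF3 element, the start regions of the members were searched for its letters, TCAGGTTTC, on both strands. RefSeq promoter windows (GRCm38.p6, 250 bases before to 50 after a start) were found for 7 of the 9 members, in 10 windows. Of 32851 such windows, 141 held the letters (0.429%). Six4 was the 1 member with a match, and the shorter core TCAGGTT, found in 4.07% of all windows, was among the members in that Six4 window only. The match lies at chr12:73113336-73113344, 99 bases before 1 RefSeq start and inside the first exon of Six4-201. The stretches around it and around the match in the promoter of Myog, the muscle differentiation factor known as a target of Six-family factors, are shown because both carry the element, in capitals, with the Six4 letters reading on the opposite strand. The second lies at chr1:134289920-134289928, 84 bases before the Myog start. A match of letters does not show binding.
Six4 promoter: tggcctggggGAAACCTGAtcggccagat
Myog promoter: agaggggggcTCAGGTTTCtgtggcgttg

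Among the coactivators, Eya3 had the highest level of all 9 genes. Eya3, a broadly expressed member known as a tyrosine phosphatase, lies at chr4:132638987-132724765 (plus strand) and was at 27.4 TPM (982 reads) in replicate 1 and 30.6 TPM (985 reads) in replicate 2. Eya1, which is required for ear and kidney development, lies at chr1:14168954-14310235 (minus strand) and was at 13.3 and 11.8 TPM, from 689 and 646 reads. Eya4, which is tied to hearing and heart function in humans, lies at chr10:23102963-23350786 (minus strand) and was at 8.93 and 8.57 TPM, from 765 and 721 reads. Eya2, which is active in muscle progenitors and in limb connective tissue, lies at chr2:165595032-165771727 (plus strand) and was at 8.73 and 7.76 TPM, from 323 and 345 reads.

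Eya3 exceeded each of the other coactivators past the spread, by 2.31-fold over Eya1, 3.31-fold over Eya4 and 3.52-fold over Eya2. Eya1 exceeded Eya2 by 1.53-fold, with a spread of 1.47-fold, but the call was lost with the M4 tables. It was also lost over the longest complete coding transcript (1.11-fold) and in complete coding transcripts, where the ratio turned to 0.889-fold. Eya1 over Eya4 was 1.43-fold, at the edge of the spread of 1.44-fold, and did not pass. Eya4 and Eya2 differed by 1.06-fold and could not be ordered.

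By the deposited estimates, the lead of Eya3 did not come from transcripts that carry a complete coding sequence. These estimates rest on the annotated transcripts and were not checked against reads on single exons. In the annotation a transcript has a complete coding sequence, a partial one whose start or stop is missing, or none. Transcripts with a complete coding sequence were estimated to hold 1.66 and 1.88 TPM of Eya3, which is 6.07% and 6.14% of the gene. Transcripts without a coding sequence held 20.2 and 23.3 TPM, or 73.8% and 76.2%. Those with a partial one held 5.52 and 5.42 TPM. Ranked by the TPM of complete coding transcripts, Eya3 was 9 of 9, at 1.77 ± 0.156 TPM (SD, n = 2), and Dach1 was the first, at 17.9 ± 1.05 TPM.

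A single entry, Eya3-212, carried most of this. Eya3-212 is 2320 nt long in 16 exons and is annotated as a processed transcript without a coding sequence. It held 53.2% of Eya3 TPM in replicate 1 and 41.4% in replicate 2, from 638 and 561 estimated reads. Eya3-203, which has a complete coding sequence, is 5160 nt long in 17 exons and was given 166 and 128 reads, or 1.66 and 1.27 TPM. The authors' intervals were 12.1 to 14.9 and 10.5 to 13.1 TPM for Eya3-212, and 0.301 to 1.73 and 0.0792 to 1.49 TPM for Eya3-203, so the intervals did not overlap in either library.

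Every base of Eya3-212 is also in Eya3-203. Eya3-212 lacks 33 nt at the 5′ end, ends 2630 nt earlier, and lacks 2 coding stretches. These are the last 40 nt of exon 5 (chr4:132670216-132670255) and all 137 nt of exon 6 (chr4:132672896-132673032). They are shown, with the bases absent from Eya3-212 in capitals, because reads on them cannot come from Eya3-212. Any read elsewhere in Eya3-212, other than one across the junction that skips them, matches both transcripts. Eya3-206 (4.52 and 8.02 TPM) and Eya3-207 (5.52 and 5.42 TPM) also carry both stretches. Reads on the stretches therefore do not single out Eya3-203.
Eya3 exon 5: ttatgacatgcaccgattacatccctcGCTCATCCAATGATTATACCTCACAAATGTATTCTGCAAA
Eya3 exon 6: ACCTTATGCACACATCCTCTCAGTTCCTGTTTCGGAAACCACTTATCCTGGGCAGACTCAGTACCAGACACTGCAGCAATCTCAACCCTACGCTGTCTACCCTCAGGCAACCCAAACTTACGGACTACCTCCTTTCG

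Read from the ATG that starts the coding sequence of Eya3-203, the letters of Eya3-212 hold an open frame of 467 codons that ends at the same stop as the 526 codons of Eya3-203, or 59 fewer. The annotation gives Eya3-212 no coding sequence, and whether it is translated was not measured. After that stop Eya3-212 has 776 bases and Eya3-203 has 3406 bases. The same frame in Eya3-206, a processed transcript of 655 nt at 4.52 and 8.02 TPM, ends after 38 codons. Eya3-207, at 5.52 and 5.42 TPM, has an extra exon of 138 nt and no stop in its 1138 nt.

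**Figure D2:**
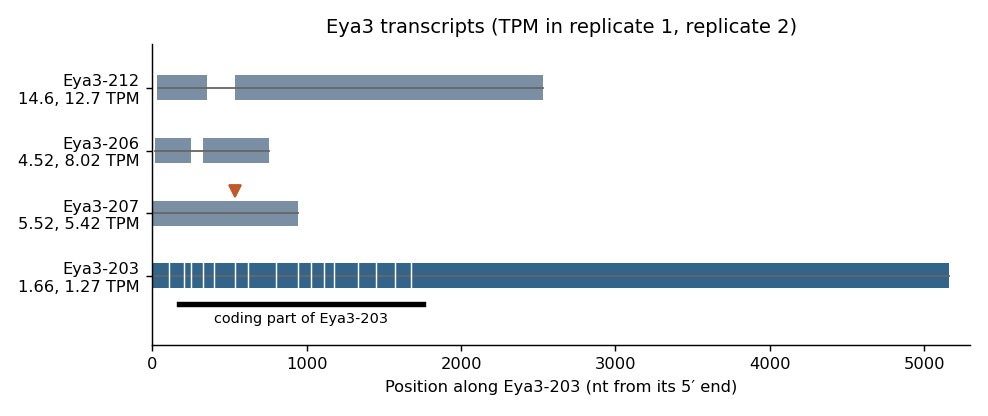
Eya3 transcripts laid on Eya3-203, in nt from its 5′ end, with TPM in replicate 1 and replicate 2 beside each name. White lines mark the exon ends of Eya3-203, the black bar its coding part, the triangle the place of the extra 138-nt exon of Eya3-207, and gaps the bases a transcript lacks: Eya3-212 lacks runs of 40 and 137 coding nt, which lie side by side, and the last 2630 nt.

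The level of Eya3 therefore depended on the transcript that the reads were divided by. With all reads of each gene divided by the length of its longest complete coding transcript, Eya3 was 3 of 9, at 6.47 ± 0.0604 RPKM (reads scaled to length and depth), after Dach1 at 11.8 ± 0.608 and Six4 at 8.50 ± 1.18. On that scale the ratio of Eya3 to Eya4 was 1.35-fold, against 3.31-fold in TPM, and Eya3 over Eya1 no longer passed the spread. This scale and that of complete coding transcripts were chosen after the values were seen.

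Eya1 was spread over more transcripts than any other member, 6 of 9 of them at 10% or more of the gene in at least 1 library. The leading Eya1-201 held 25.7% and 28.7%, and Eya1-203, which lacks 15 of its coding nt and has 3 others, held 16.1% and 13.4%. Complete coding transcripts made up 48.2% and 49.3% of Eya1 TPM. Of the other transcripts at 10% or more, the short partial entry Eya1-206 was at 2.06 TPM in replicate 1 and had no reads in replicate 2, but the authors' intervals, 0.643 to 3.68 TPM and up to 1.54 TPM, overlapped. Eya1-205 and Eya1-207 are partial as well, and Eya1-204 retains intron sequence.

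Eya4 and Eya2 each had 1 main coding transcript. Eya4-202 held 69.9% and 65.6% of Eya4, and Eya4-208, which has another coding exon of 101 nt in place of one of the same length, held 8.39% and 11.6%. The retained-intron entry Eya4-204 held 9.73% and 10.4%. Eya2-202 held 75.5% and 92.7% of Eya2. The gap between the libraries was taken up mostly by Eya2-203, an entry of 369 nt with 7.26 estimated reads in replicate 1 and none in replicate 2.

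**Figure D3:**
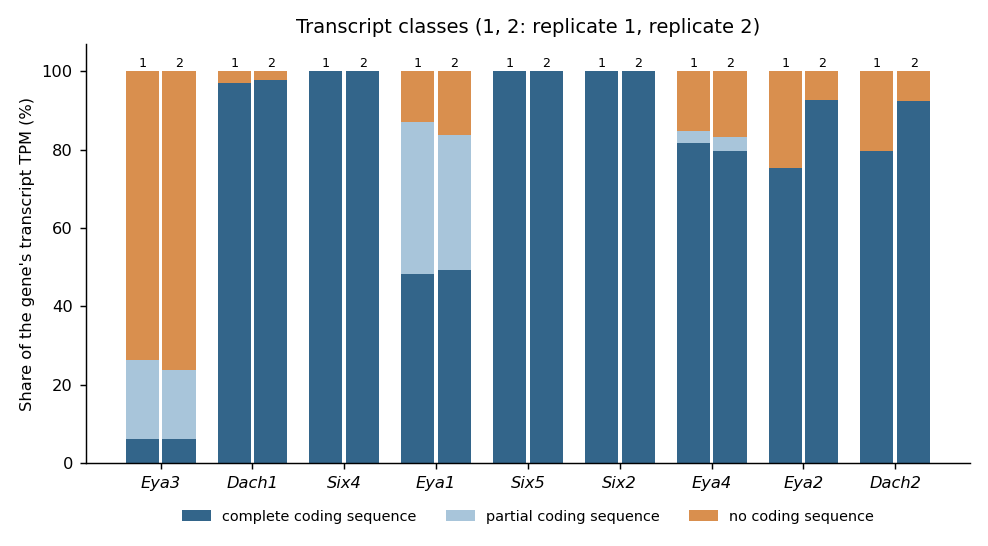
Share of each gene's transcript TPM, in percent, in transcripts with a complete, a partial or no coding sequence, for replicate 1 (bar 1) and replicate 2 (bar 2). Complete coding transcripts make up 6.07% and 6.14% of Eya3 and 48.2% and 49.3% of Eya1, and at least 75.5% of each of the other genes.

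Of the corepressors, Dach1 was the more abundant. Dach1, a homologue of the Drosophila leg and eye gene dachshund, lies at chr14:97786853-98169765 (minus strand) and was at 17.7 TPM (1730 reads) in replicate 1 and 19.1 TPM (1891 reads) in replicate 2. Dach2, its paralogue on the X chromosome at chrX:113297510-113836386 (plus strand), was at 6.46 and 6.52 TPM, from 324 and 368 reads. Dach1 exceeded Dach2 by 2.83-fold, past the spread of 1.48-fold. Dach1 held the most reads of all 9 genes and was the first in both the complete coding order and the order by reads over the longest complete coding transcript.

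Dach1 came mostly from 1 transcript and Dach2 from several. Dach1-201 held 85.4% and 82.0% of Dach1. Dach1-202, at 11.7% and 15.8%, differs from it only by a coding exon of 156 nt, exon 4, at chr14:97916393-97916548. Its sequence, shown 5′ to 3′ along the gene because it is the whole of the difference between these proteins' messages, is all in capitals as absent from Dach1-201.
Dach1 exon 4: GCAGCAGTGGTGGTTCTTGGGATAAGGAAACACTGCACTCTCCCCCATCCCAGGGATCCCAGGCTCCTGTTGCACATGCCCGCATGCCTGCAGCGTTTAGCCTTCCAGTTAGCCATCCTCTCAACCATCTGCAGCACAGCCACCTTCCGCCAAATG

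Dach2-201 held 54.8% of Dach2 in replicate 1 and 69.6% in replicate 2. Dach2-205, which has another 3′ end, held 0.77 and 0.73 TPM, and the short noncoding Dach2-207 held 0.84 TPM in replicate 1 and had no reads in replicate 2. The total TPM of Dach2 differed by 0.01 on the log2 scale between the libraries while these shares moved. Its reads numbered 324 and 368, and its complete coding transcripts were at 5.15 and 6.02 TPM. The close totals in TPM therefore depend on how the reads were shared among transcripts.

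Across the 9 genes, 52 transcripts are annotated and 10 of them had no reads in either library. Among the 8 genes with at least 2 transcripts, 6 had a leading transcript of at least 50% of the gene, against 72.5% of 11793 protein-coding genes. With Six5, which has a single transcript, that makes 7 of 9. The leading transcript of each of those 8 was the same in both libraries, against 90.3% of 11792 protein-coding genes with at least 2 transcripts. Six5, with 1 transcript, had to agree. Eya3 and Eya1 were the 2 members with under 50% in complete coding transcripts, and 18.5% of protein-coding genes were below that share, so such a gene is common. The median share over those genes was 82.6%. No other annotated gene overlaps the Six-family genes or Eya3. The other 5 members overlap 8 annotated genes on either strand, none of which had more than 6 reads in a library.

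**Figure D4:**
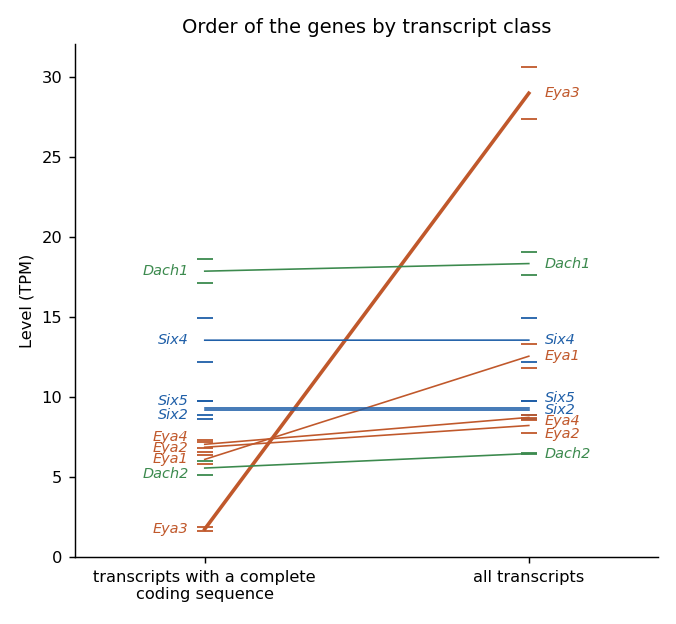
Level in TPM of the 9 genes in transcripts with a complete coding sequence (left) and in all transcripts (right). Lines join the means and dashes mark the 2 libraries: Eya3 is lowest on the left at 1.77 TPM and highest on the right at 29.0 TPM, while Dach1, Six4, Six5 and Six2 are nearly level.

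Put in order by mean TPM, the genes ran Eya3 (29.0 ± 2.31), Dach1 (18.4 ± 0.997), Six4 (13.6 ± 1.94), Eya1 (12.6 ± 1.04), Six5 (9.35 ± 0.629), Six2 (9.21 ± 0.813), Eya4 (8.75 ± 0.255), Eya2 (8.25 ± 0.686) and Dach2 (6.49 ± 0.0424; SD, n = 2 each). Of the 8 pairs of neighbours in that order, 1 passed the spread, Eya3 over Dach1 at 1.58-fold against a spread of 1.31-fold. That order turned around on other scales. In complete coding transcripts Eya3 was at 1.77 TPM and Dach1 at 17.9 TPM. Over the longest complete coding transcript they were at 6.47 and 11.8 RPKM, and Dach1 had more reads in both libraries. Of the 10 pairs within a family, 6 passed. With 2 values against 2, a two-sided exact permutation test cannot go below p = 0.33, so no p is given for these pairs.

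Between the libraries no member differed by more than 0.29 on the log2 scale of TPM. Eya2 was lower in replicate 2 in TPM but higher in reads (323 and 345) and in complete coding transcripts (6.58 and 7.19 TPM). A gene was called when a two-sided exact binomial test of its rounded counts had an adjusted p under 0.05 (Benjamini-Hochberg over 15926 genes) and the TPM ratio was at least 2-fold. None of the 9 was called (0 of 9), against 1.02% of all genes tested. At an unadjusted p under 0.05 there were 2, Six4 (p = 7.21e-09) and Dach1 (p = 0.0267), by the exact binomial test, against 29.5% of all genes. At an adjusted p under 0.05 with no minimum fold there was 1, Six4, against 19.0% of genes.

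Six4 was higher in replicate 2 by 0.29 on the log2 scale of TPM, with an adjusted p of 2.37e-07 by the exact binomial test and intervals that did not overlap (11.2 to 12.4 TPM in replicate 1, 13.8 to 15.1 TPM in replicate 2). That p compares 1 library with 1 library and covers counting error only. Of the 500 genes of like level, 84.8% differed less. Of the 5 limb markers, 3 were higher and 2 lower in replicate 2. Among them Pitx1, a hindlimb factor, was at 136 and 164 TPM, and Tbx5 at 39.96 and 28.4 TPM. By TPM, all 5 tendon and connective tissue factors were lower in replicate 2, with sums of 221 and 183 TPM, as were all 4 Pax genes. Not all of these were lower in reads: Mkx had 1446 in replicate 1 and 1503 in replicate 2. Tnmd, with 38 and 36 reads, and Pax7, with 35 and 28, rest on few reads. Of the 9 genes on the myogenic and muscle fibre lists, 7 were lower and 2, Myod1 and Myl1, higher in replicate 2, by TPM and without a test. Their summed level was 898 TPM in replicate 1 and 860.3 TPM in replicate 2, and none was at 0. The part of tissue composition in the Six4 difference was not tested. The median absolute log2 difference was 0.16 for the 9 genes and 0.12 for all genes tested.

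**Figure D5:**
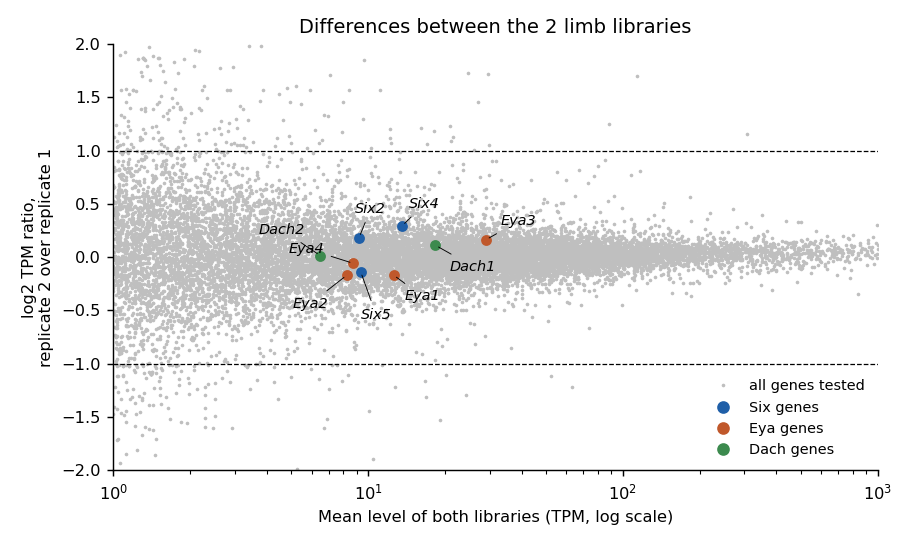
The log2 TPM ratio of replicate 2 over replicate 1 (vertical axis) against mean TPM (log scale) for all genes tested (grey) and the 9 genes (coloured by family); dashed lines mark 2-fold, and points beyond the axes are not drawn. The 9 genes lie between -0.17 (Eya2 and Eya1) and 0.29 (Six4).

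The same reads had also been quantified with the older GENCODE M4 annotation, which shows how far a level rests on the transcripts offered. None of the 9 genes differed 1.5-fold between M21 and M4 (0 of 9), against 6.12% of 14763 genes. For 8 of them M21 over M4 lay between 0.939 and 0.958, near the median of 0.949 over genes. Eya4 was at 8.75 TPM with M21 and 6.54 TPM with M4, 1.34-fold, and its reads were 765 and 721 with M21 and 503 and 448 with M4. Eya4-202 is 5304 nt long in M21 and 4091 nt in M4. Eya3-212 led Eya3 with M4 as well, at 52.5% and 41.6% of the gene.

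Genes known to work with the network, markers of tissues and the neighbours of Six5 were read from 9 short lists. Of the 50 listed genes, 41 reached 1 TPM in both libraries, against 58.1% of protein-coding genes. Upstream, 2 of 4 Pax genes did, Pax9 being the highest at 6.12 ± 1.94 TPM and Pax7, a muscle progenitor factor, the lowest at 0.335 ± 0.0212 TPM. Pax1 was at 1.47 TPM in replicate 1 and 0.610 TPM in replicate 2 and was the 1 listed gene called between the libraries (adjusted p = 5.69e-04, exact binomial test). All 13 corepressors and coactivators reached it, with a median of 34.4 TPM, above the 9.35 TPM of the 9 genes. Tle5 (Aes in M21), a Groucho-related protein, was the highest at 367 ± 19.3 TPM, and Sobp, a Six-binding protein, the lowest at 3.55 ± 0.311 TPM.

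Downstream, 3 of 4 myogenic factors reached 1 TPM in both libraries, Myog at 89.6 ± 4.64 TPM being the highest and Myf6 the lowest at 0.630 ± 0.0990 TPM. Of 6 other target genes 5 did, with the cell-cycle gene Ccnd1 at 136 ± 5.08 TPM and the kidney growth factor Gdnf at 0.290 ± 0.127 TPM. The neighbours of Six5, Dmwd and Dmpk, were at 15.6 ± 2.29 and 14.5 ± 0.841 TPM.

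The network also serves tissues other than muscle, so markers of these were read beside it. All 5 tendon and connective tissue factors reached 1 TPM in both libraries, Scx, the tendon progenitor factor, at 65.6 ± 6.74 TPM and Tnmd, a later tendon gene, at 1.49 ± 0.0707 TPM. Of 6 kidney markers 1 reached it, Cited1 at 32.05 ± 0.156 TPM. Wt1, a kidney progenitor factor, was detected below that level, at 0.640 TPM (25 reads) and 0.390 TPM (18 reads). Umod and Slc12a1, defining genes of kidney tubules, had 0 reads in either library. The limit this sets is 0.132 and 0.131 TPM for Umod and 0.0392 and 0.0388 TPM for Slc12a1 (3 reads per library, counting error only).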

How the data were processed

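Limb RNA of 2 pools of embryos was read as polyA-plus RNA-seq, with ERCC spike-ins, per the labels' protocols. The authors deposited expected counts per gene and transcript under the column names that RSEM uses. TPM, in which levels are given, was computed by the authors and deposited, with FPKM beside it, and covers spike-ins, which held 7.34% and 5.13% of it. The percent of a gene held by each transcript was deposited by the authors too. The intervals quoted are bounds on the TPM signal as the authors deposited them, and their probability level was not stated. Tables for GENCODE M21 (main) and M4, both on mm10, were used. For read aligner, program version and strand handling: not given in the sources used here. No column belonged to other samples (0).

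Replicate numbers come from the labels. Expected counts were rounded for the library test, with library sizes from edgeR 4.0.16 (TMM) and, as an alternative, DESeq2 1.42.0. Genes with a mean of 1 TPM or more were tested. Python 3.11.15, numpy 2.4.6, pandas 2.3.3, scipy 1.17.1 and R 4.3.3 were used. tRNA and spike-in entries stayed out of library sizes and gene counts. On simulated data for replicate 2 against replicate 1 with 15926 genes, 200 of 200 genes changed 3-fold were recovered and 19 of 15726 unchanged genes were called. The changed genes were drawn only from those with more than 200 reads over both libraries, so recovery at fewer reads was not tried. The variation between libraries was assumed, and the number of unchanged genes called depends on it. Class of a transcript comes from its M21 type and coding tags. The effective length was the length less 99 nt. A count of 0 was given a limit of 3 reads. Depths and intervals cover counting and assignment error, not the variation among embryos.

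All 9 members were named, with their transcripts at 10% or more, the highest and lowest gene of each list, and any listed gene called. The members and the lists were chosen with earlier results of these data known. Named outside that rule, after values were seen, were Pitx1, Myod1, Myl1, Wt1, Mkx, Eya3-203, Six4-202 and Six2-201. Sequences come from the GENCODE M21 transcripts and, for promoters, from RefSeq (GRCm38.p6). Alternatives were other minima and folds, the M4 tables, FPKM, rescaled TPM, counts without length, other scalings, filters, pseudocounts and numbers of neighbours, and either library alone.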

Additional observations from a re-analysis of the deposited data

How the results depend on the processing

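No paired analysis was possible because the labels give 1 group. Of 58 alternatives tried for the counts, 52 left the count within 1.5 times and 6 moved it. Some of the 52 were fixed in advance. With all 9 members at 1 TPM, a lower minimum or either library alone could not change that count. With no member past 1.5-fold between annotations, a 2-fold minimum could not change that count. The limit of 1.5 times covers the number and not which genes or pairs make it up. With only complete coding transcripts, 5 family pairs passed against 6 in the main setting, but only 2 of those 6 were kept. FPKM and rescaled TPM leave the ratio of 2 genes within a library unchanged, so they hardly test the pairs. Neighbours past the spread numbered 1 in the main setting and 2 with counts not divided by length and with all reads over the longest complete coding transcript, the second chosen after the data were seen. On both of these scales Dach1 came first, so Eya3 over Dach1 was not among the pairs. Neighbours past the spread ranged from 1 without replicate 1 to 2 without replicate 2. With no minimum fold, the members called between the libraries numbered 1, Six4. At a smaller minimum fold, or with expected counts in place of TPM, the members that differ between annotations numbered 1, Eya4. The cause was not tested.

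Family pairs past the spread ranged from 4 to 8 over the alternatives, against 6. Either library alone kept all 6, an outcome fixed in advance, since a pair must pass in both libraries to be called. The M4 tables kept 4, losing Eya1 over Eya2 and Six4 over Six2. Eya3 exceeded Eya4 in TPM but was lower by 2.00 on the log2 scale in complete coding transcripts (0.250-fold), where it was also below Eya1 and Eya2. Levels, with no test, moved by more than 1 SD in 20 of 45 alternatives, which with an SD of 2 libraries is a narrow bound. Part of that count was fixed in advance. Each of 2 values lies within 1 SD of their mean, so either library alone could not move a level. FPKM is another unit than TPM and moved every level, so neither alternative tells how stable a level is. Depth is 1 limit on the transcript shares: entries such as Eya2-203 rest on fewer than 10 estimated reads, and a short entry at few reads takes a large share of TPM. Groups of 2 libraries are too small to single out an outlying one.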
